A study of Mus musculus and Homo sapiens with 12 samples.

Results

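The genes described here are 10 that are typical of monocytes and macrophages: CSF1R, IRF8, CYBB, CCR2, LY86, CX3CR1, CD68, CD14, MPEG1 and TYROBP. They were taken by symbol, without regard to case. All 10 were found among the 55487 genes of the mouse count table and 9 among the 78932 genes of the human one. CD68 was not paired with an identifier in the tables used for the human cells and was not analysed there. Monocytes arise from myeloid progenitors under transcription factors that include PU.1 and IRF8, and they depend on the receptor tyrosine kinase CSF1R, which binds the growth factors CSF1 and IL-34. As they mature they acquire chemokine receptors that guide them to tissues, the oxidase that makes superoxide in phagosomes, and surface receptors for microbial products. Several of these genes are already transcribed in progenitors that have begun this course.

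Polyadenylated RNA was sequenced in 12 libraries from 2 experiments that remove the nucleolar RNA helicase DDX21 from blood progenitors. The mouse cells were live lineage-negative, Kit-positive (LK) cells sorted from fetal liver at stage E13.5. The lineage antibodies (Gr1, Cd11b, CD3, B220 and Ter119) remove cells that already carry the surface markers of granulocytes, monocytes, lymphocytes and red cells. Both mouse groups carried loxP-flanked (floxed) Ddx21 alleles (Ddx21f/f). The control group is called WT, and the knockout group (cKO) added Cre recombinase driven by the Vav1 promoter, which is active across blood cells, so its deletion was not limited to monocytes. The human cells were differentiated with a hematopoietic kit from H1, an established human embryonic stem cell line. All human groups received lentivirus carrying mCherry and a hairpin RNA, either a control hairpin (shNC) or one against DDX21 (shDDX21), and live CD34+ CD45+ CD43+ shRNA+ cells were sorted 2 days later. Each of the 4 groups had 3 libraries. The labels do not say whether replicates came from separate embryos, litters or cultures, so p-values measure only the spread between these libraries.

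Libraries held 21116079 to 23898130 counts in the mouse and 15289510 to 19798608 in the human experiment. The Ddx21 level in cKO was 19.7% of WT, and DDX21 in shDDX21 was 14.5% of shNC. Kit, the receptor used in the mouse sort, was at 362.3 counts-per-million (CPM) in WT and 316.9 in cKO, and CD34, used in the human sort, was at 248.6 in shNC and 297.5 in shDDX21. The spread between mouse replicates was uneven. The chi-square per degree of freedom between libraries of 1 group ran from 1.96 (WT replicates 1 and 2) to 25.1 (cKO replicates 1 and 2), against 1.54 to 1.71 in the human experiment. The biological coefficient of variation was 10.5% in the mouse and 2.23% in the human libraries, so the same fold change was resolved more finely in the human cells. Unless another test is named, differences are log2 fold changes (log2 changes for short) by edgeR's quasi-likelihood F test. Its p-values were adjusted by the Benjamini-Hochberg method over all genes tested, and a gene was called at an adjusted p under 0.05.

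In the mouse, loss of Ddx21 came with lower transcript levels of most of these genes. Of the 9 that passed the filter on low counts, 8 fell and 1 (Cd68) rose, where 15.8% of all 14918 genes tested fell and 20.7% rose. The median log2 change of the 9 was -1.86, beside 0.00057 over all genes tested. Ly86, Mpeg1, Cybb, Csf1r, Irf8, Ccr2 and Cx3cr1 fell to between 8.33% and 45.8% of WT, and 7 genes of the 9 fell at least 2-fold, as did 1.8% of all genes. None rose that far, against 7.27% of all genes. The calls of Tyrobp and Cd68 were marginal and are described with their values. CPM did not overlap between WT and cKO for any of the 9, and 49% of all genes tested were apart in this way. In bulk samples, fewer cells of a type and less RNA per cell cannot be told apart.

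**Figure D1:**
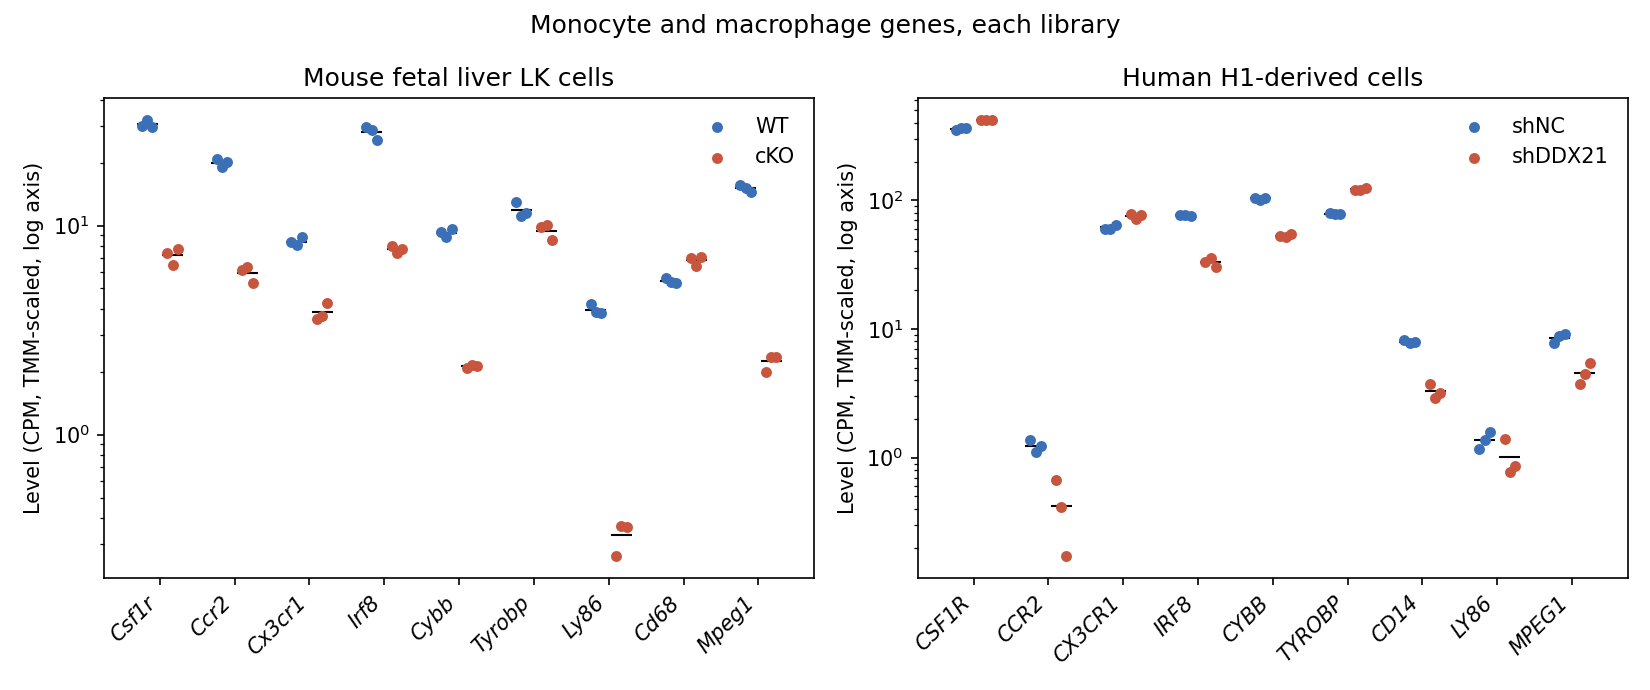
Level of each tested gene in each library (CPM scaled by TMM, log axis) in mouse LK cells (left, without Cd14) and human H1-derived cells (right, without CD68). Each point is 1 library and each bar the mean of 3, with the control group in blue and the knockout or knockdown group in red. Csf1r lay between 29.6 and 32.0 CPM in WT and between 6.48 and 7.75 in cKO, whereas human CSF1R was higher in all 3 shDDX21 libraries.

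Promoter sequence is shown for 3 of the genes that fell furthest in the mouse (Cybb, Mpeg1 and Ly86) and for Cd68, which did not fall, because PU.1 and IRF8 act at monocyte genes through short recognition sequences. Each is 300 bases from RefSeq on GRCm38.p6, 250 before the start site and 50 after, written 5′ to 3′ along the gene. Cybb lies at chrX:9469275-9469574 (minus strand, with a start site inside the longer GENCODE gene), Cd68 at chr11:69666121-69666420 (minus strand), Mpeg1 at chr19:12460520-12460819 (plus strand) and Ly86 at chr13:37345095-37345394 (plus strand). Capitals mark matches, on either strand, to a PU.1-type ETS core (GAGGAA), an ETS-IRF composite element (GGAA and GAAA with 2 free bases between them) or an IRF repeat (GAAA and GAAA, again 2 free bases apart).
Cybb: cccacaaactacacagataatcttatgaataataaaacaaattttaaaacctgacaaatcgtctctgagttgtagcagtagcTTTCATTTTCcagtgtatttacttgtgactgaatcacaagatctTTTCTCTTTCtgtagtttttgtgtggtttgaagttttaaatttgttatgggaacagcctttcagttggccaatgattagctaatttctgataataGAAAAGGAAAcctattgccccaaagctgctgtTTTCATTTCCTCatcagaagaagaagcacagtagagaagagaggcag
Cd68: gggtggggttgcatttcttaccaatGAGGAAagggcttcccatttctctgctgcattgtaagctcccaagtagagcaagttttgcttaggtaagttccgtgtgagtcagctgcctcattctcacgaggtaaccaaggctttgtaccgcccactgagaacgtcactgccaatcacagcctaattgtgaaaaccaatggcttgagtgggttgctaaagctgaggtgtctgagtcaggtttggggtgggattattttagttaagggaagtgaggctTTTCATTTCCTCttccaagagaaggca
Mpeg1: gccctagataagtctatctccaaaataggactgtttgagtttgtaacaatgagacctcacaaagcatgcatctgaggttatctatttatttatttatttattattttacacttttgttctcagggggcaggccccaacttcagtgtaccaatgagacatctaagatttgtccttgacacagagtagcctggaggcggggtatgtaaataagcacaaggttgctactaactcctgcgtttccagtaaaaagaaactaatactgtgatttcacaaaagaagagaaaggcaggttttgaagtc
Ly86: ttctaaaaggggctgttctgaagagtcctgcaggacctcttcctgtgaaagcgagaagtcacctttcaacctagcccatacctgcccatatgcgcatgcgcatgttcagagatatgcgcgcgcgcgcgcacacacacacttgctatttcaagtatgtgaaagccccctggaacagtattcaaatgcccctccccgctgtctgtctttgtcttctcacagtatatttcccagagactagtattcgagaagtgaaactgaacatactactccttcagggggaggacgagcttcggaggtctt
The Cybb window held 3 IRF repeats, 1 ETS-IRF element and 1 ETS core, and the ETS-IRF element and the core overlap just after the start site. The Cd68 window held 2 ETS cores and 1 ETS-IRF element, with the same overlap of that element and a core. Neither Mpeg1 nor Ly86 had a match in these windows, nor did those of Irf8 (2 start sites), Ccr2 and Cx3cr1. Windows were searched for 7 of the 10 genes. Csf1r, Tyrobp and Cd14 were not among them, so their promoters are not described. The background was the 32851 promoters of the same length that were searched. Of these, 28.3% held the ETS core, 2.72% the ETS-IRF element and 3.44% the IRF repeat. Cybb, which fell, and Cd68, which did not, thus both carried the ETS-IRF letters. A match is a description of the letters and not a measured binding site, and a window without a match says nothing about distant elements.

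The receptor and the transcription factor of the lineage were both lower in cKO. Csf1r (ENSMUSG00000024621; GRCm38 chromosome 18, 61100598 to 61132149, plus strand) encodes the CSF1 receptor. Its counts of 665, 658 and 637 in WT compare with 169, 160 and 171 in cKO. Every cKO library was thus far below every WT library. This corresponds to 30.5 ± 1.35 CPM in WT and 7.20 ± 0.650 in cKO (SD, n = 3 each), a log2 change of -2.08 (SE 0.091, adjusted p 6.56e-06). Its exons share 873 bases (15.1% of their length) with Hmgxb3 on the other strand, and whether reads were counted by strand is not given in the sources used here. Hmgxb3 had 1699 to 1772 counts in WT and 1911 to 2191 in cKO, so its counts were higher in every cKO library.

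Irf8 (ENSMUSG00000041515; chromosome 8, 120736358 to 120756694, plus strand) encodes the interferon regulatory factor that directs progenitors to the monocyte and dendritic cell fates. Its counts were 662, 589 and 554 in WT against 183, 183 and 170 in cKO. All 3 cKO libraries were close to each other and well under the lowest WT library. The level went from 28.0 ± 2.07 CPM to 7.70 ± 0.277 CPM (SD, n = 3 each), so the log2 change was -1.86 (SE 0.086, adjusted p 8.41e-06).

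The deepest reductions were those of an accessory protein of a toll-like receptor homologue and of a pore-forming protein. Ly86 (ENSMUSG00000021423; chromosome 13, 37345208 to 37419036, plus strand) encodes MD-1, which pairs with the receptor CD180. It had counts of 94, 79 and 82 in WT against 6, 9 and 8 in cKO. Few reads remained, yet each cKO library was above the detection floor of 3 counts. The log2 change was -3.56 (SE 0.18, adjusted p 1.34e-05), the 4th lowest of the 14918 genes. Mpeg1 (ENSMUSG00000046805; chromosome 19, 12460779 to 12465283, plus strand) encodes perforin-2, a membrane-attack protein of macrophages that acts on ingested bacteria. It had counts of 349, 311 and 313 in WT against 46, 58 and 52 in cKO, again with no overlap. Its log2 change was -2.75 (SE 0.11, adjusted p 3.57e-06), the 22nd lowest.

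Cybb (ENSMUSG00000015340; chromosome X, 9435252 to 9487771, minus strand) encodes gp91phox, the catalytic subunit of the phagocyte NADPH oxidase. counts were 207, 182 and 207 in WT against 48, 53 and 47 in cKO, so the cKO libraries held 23.0% of the WT level on the CPM scale. The log2 change was -2.12 (SE 0.10, adjusted p 1.02e-05). Cybb is X-linked, and the 4 Y-linked genes tested were higher in cKO by a median log2 change of 1.03. Whether the mix of embryo sexes had a part in the Cybb difference was not tested.

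Both chemokine receptors of the group fell. Ccr2 (ENSMUSG00000049103; chromosome 9, 124101950 to 124113557, plus strand) lets inflammatory monocytes leave the bone marrow. It had counts of 464, 390 and 434 in WT against 141, 156 and 117 in cKO. The highest cKO library was thus under the lowest WT library, and the log2 change was -1.75 (SE 0.097, adjusted p 1.78e-05). Cx3cr1 (ENSMUSG00000052336; chromosome 9, 119901616 to 120069879, minus strand) encodes the fractalkine receptor of patrolling monocytes and tissue macrophages. With counts of 185, 165 and 190 in WT against 82, 91 and 94 in cKO, it kept the largest share of its WT level among the 7 genes that fell at least 2-fold. Its log2 change was -1.13 (SE 0.11, adjusted p 2.69e-04).

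Tyrobp and Cd68 changed little in the mouse. Tyrobp (ENSMUSG00000030579; chromosome 7, 30413760 to 30417585, plus strand) encodes DAP12, the adaptor that carries an activation motif for receptors of myeloid and natural killer cells. Its counts were 288, 229 and 247 in WT against 225, 247 and 189 in cKO. The raw counts overlap, and the groups separate only after scaling, at 11.1 to 12.9 CPM in WT and 8.57 to 10.0 in cKO. The log2 change of -0.32 (SE 0.10) had an adjusted p of 0.0444, which lay between 0.0338 and 0.146 over 14 alternative analyses and missed the threshold in 12 of them. Leaving out any 1 of the 6 libraries ended the call, with adjusted p from 0.0545 to 0.146.

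Cd68 (ENSMUSG00000018774; chromosome 11, 69664213 to 69666153, minus strand) encodes a lysosomal membrane protein that is abundant in macrophages. It had counts of 125, 110 and 114 in WT against 160, 158 and 156 in cKO, and every cKO library was above every WT library. The log2 change was 0.33 (SE 0.097, adjusted p 0.0334). The call was missed in 8 of 14 alternatives, over which the adjusted p ran from 0.0175 to 0.203. Without WT replicate 1, 2 or 3 it was 0.0737, 0.10 and 0.0799, and without cKO replicate 1 or 3 it was 0.0710 and 0.112. Cd14 (ENSMUSG00000051439; chromosome 18, 36725067 to 36726798, minus strand), the co-receptor for lipopolysaccharide, was near the detection limit. It had 3, 6 and 1 counts in WT and 0 in each cKO library, where the floor of 3 counts corresponds to 0.122 to 0.136 CPM. It was not tested, and no fold change is given.

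Knockdown of DDX21 in the human cells came with changes in both directions. Of the 9 genes tested, 5 fell (IRF8, CYBB, CCR2, CD14 and MPEG1), 3 rose (CSF1R, CX3CR1 and TYROBP) and LY86 was not called. Over all 20188 genes tested, 27.4% fell and 25.3% rose, so a call in itself was common. The median log2 change of the 9 was -0.91, beside 0.0052 over all genes. IRF8, CCR2 and CD14 fell at least 2-fold, a size reached by 3.83% of all genes, and none of the 3 higher genes reached it (3.35% of all genes did). CPM did not overlap between shNC and shDDX21 for 8 of the 9, the exception being LY86, and 57.4% of all genes tested were apart in this way.

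IRF8 (ENSG00000140968) had counts of 1448, 1186 and 1341 in shNC against 647, 598 and 528 in shDDX21. The groups were wide apart, at 76.5 ± 0.985 and 32.9 ± 2.70 CPM (SD, n = 3 each), and the log2 change was -1.22 (SE 0.049, adjusted p 6.23e-34). CYBB (ENSG00000165168) had counts of 1983, 1553 and 1863 in shNC against 1031, 871 and 962 in shDDX21. Its level came to 51.2% of the control, with a log2 change of -0.97 (SE 0.040, adjusted p 1.87e-33). The transcription factor and the oxidase subunit thus fell in the human cells as in the mouse.

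CD14 (ENSG00000170458) was measurable in the human cells, with counts of 154, 119 and 140 in shNC against 73, 49 and 56 in shDDX21. Each knockdown library was under each control, and the log2 change was -1.27 (SE 0.14, adjusted p 5.27e-12). MPEG1 (ENSG00000197629) had counts of 146, 134 and 162 in shNC against 73, 76 and 95 in shDDX21, a log2 change of -0.91 (SE 0.14, adjusted p 2.60e-08). A stretch of 79 bases of its exons is shared with DTX4 on the other strand, which had 27 to 36 counts in shNC and 12 to 17 in shDDX21.

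CCR2 and LY86 were near the lower limit of what these libraries resolve. CCR2 (ENSG00000121807) had counts of 26, 17 and 22 in shNC against 13, 7 and 3 in shDDX21, with a log2 change of -1.54 (SE 0.39, adjusted p 6.26e-04). Its shDDX21 libraries differed among themselves, and leaving out single libraries or changing the processing moved the value between -2.07 and -1.17. LY86 (ENSG00000112799) had counts of 22, 21 and 28 in shNC against 27, 13 and 15 in shDDX21. The first knockdown library lay within the control range. The log2 change of -0.43 (95% interval -1.05 to 0.20, adjusted p 0.257) was not called, and the interval allows a reduction of about the size seen for MPEG1.

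Of the 3 genes that rose in the human cells, TYROBP and CSF1R also had the highest levels of the group per exon length. CSF1R (ENSG00000182578) had counts of 6697, 5587 and 6445 in shNC against 8126, 7115 and 7366 in shDDX21. Levels were 360.6 ± 5.46 and 419.5 ± 2.33 CPM (SD, n = 3 each), a small but sharply resolved log2 change of 0.22 (SE 0.023, adjusted p 3.36e-13). CX3CR1 (ENSG00000168329) had counts of 1138, 921 and 1146 in shNC against 1512, 1211 and 1356 in shDDX21, with a log2 change of 0.29 (SE 0.043, adjusted p 9.92e-09). TPM (transcripts-per-million) divide counts by exon length and scale each library to its own total, without the TMM factors used for CPM. In TPM the CX3CR1 groups overlapped, at 61.3 to 66.6 in shNC and 65.9 to 71.9 in shDDX21. CSF1R stayed apart on that scale but rose less than in CPM, from 259.4 to 266.0 TPM in shNC to 270.1 to 277.1 in shDDX21. TYROBP (ENSG00000011600) had counts of 1507, 1198 and 1394 in shNC against 2349, 2040 and 2181 in shDDX21. Its rise was the largest of the 3, to 155% of the control (log2 change 0.63, SE 0.035, adjusted p 4.95e-26). Short genes as a class were higher in the shDDX21 libraries, by 0.15 on the log2 scale at the exon length of TYROBP (907 bases), and with an offset for length its log2 change was 0.48.

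**Figure D2:**
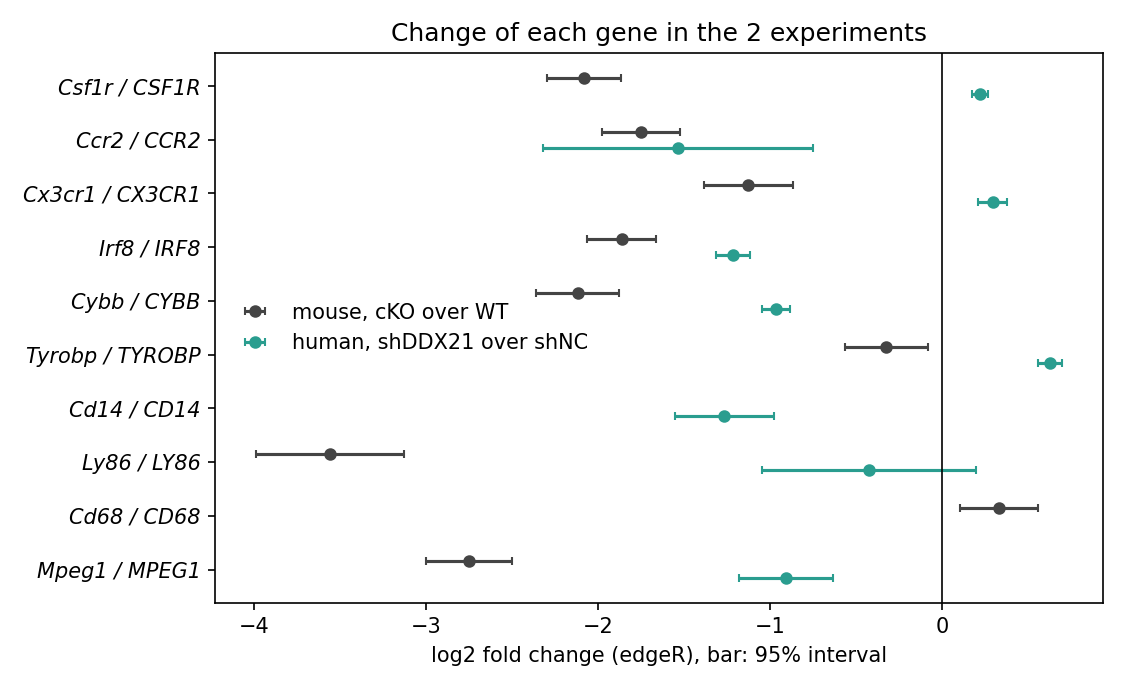
Log2 fold change of each tested gene in the mouse (cKO over WT, dark) and the human cells (shDDX21 over shNC, green), from edgeR, with 95% intervals and a line at 0. Irf8, Cybb, Ccr2 and Mpeg1 lie below 0 in both experiments, while Csf1r and Cx3cr1 are at -2.08 and -1.13 in the mouse and at 0.22 and 0.29 in the human cells.

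The difference between the mouse and the human effect was tested as an interaction in 1 fit of all 12 libraries, over 10313 genes matched by symbol and tested in both. The experiments differ in species, cell source and means of removing DDX21, and these cannot be told apart. The fit gave each gene a shared spread, although the biological coefficient of variation was 10.5% in the mouse and 2.23% in the human libraries. For CSF1R the SE of the difference was below that of the mouse effect alone (0.071 against 0.091). CYBB, CX3CR1 and TYROBP were alike in this, and the other matched genes were not. Interaction SE and p-values can therefore understate the mouse spread. Of the 8 genes that could be matched, 7 were called with a mouse effect below the human effect and the other, CCR2, was not called, where 20.4% of all genes were called below and 35.8% above. Their median difference was -1.29, beside 0.087 over all genes. CSF1R differed by -2.30 (SE 0.071, adjusted p 4.61e-10) and CX3CR1 by -1.42 (SE 0.10, adjusted p 3.53e-07). TYROBP also had effects of opposite sign, and differed by -0.95 (SE 0.089, adjusted p 3.17e-06). The genes that fell in both experiments fell further in the mouse for MPEG1 (difference -1.84, SE 0.18, adjusted p 5.47e-06), CYBB (-1.15, SE 0.080, adjusted p 2.91e-07) and IRF8 (-0.65, SE 0.10, adjusted p 2.19e-04). LY86 differed by -3.14 (SE 0.35, adjusted p 1.21e-05). For CCR2 no difference was shown. Its estimate was -0.21 with a 95% interval of -1.05 to 0.63 (adjusted p 0.656), and it changed sign to 0.33 without shDDX21 replicate 1.

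Levels between genes were compared per exon length, in TPM. In WT LK cells the order was Tyrobp (65.8), Csf1r (19.6), Cd68 (16.0), Irf8 (14.7), Mpeg1 (12.9), Ccr2 (10.95), Cx3cr1 (6.90), Cybb (5.91), Ly86 (4.03) and Cd14 (0.33), and all 9 neighbouring pairs were apart over the 3 libraries. In cKO Cd68 moved up to second place at 21.3 TPM, behind Tyrobp at 55.7, while Csf1r came after them at 4.89. Ccr2 and Cx3cr1 (3.44 and 3.35 TPM) did not differ there beyond their spread. The group summed to 157.0 ± 4.51 TPM in WT and 96.8 ± 3.51 in cKO (SD, n = 3 each), and Tyrobp and Cd68 had 57.5% and 22.0% of the cKO sum. Both are short transcripts, and without division by length the picture differs. In CPM the group summed to 132.6 ± 3.74 in WT and 45.6 ± 0.495 in cKO, of which Tyrobp had 20.7% and Cd68 14.9% in cKO.

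In shNC cells TYROBP (326.5 TPM) and CSF1R (263.1) led, followed by CYBB (81.1), CX3CR1 (63.3), IRF8 (36.6), CD14 (18.1), MPEG1 (7.26), LY86 (4.28) and CCR2 (1.20). In shDDX21 CX3CR1 (69.5 TPM) was above CYBB (37.2), and MPEG1 (3.47) and LY86 (2.80) overlapped. The sum was 801.5 ± 9.05 TPM in shNC and 860.7 ± 16.9 in shDDX21 (SD, n = 3 each). TYROBP made up 40.7% of it in shNC and 52.6% in shDDX21, and CSF1R 32.8% and 31.8%. In CPM, CSF1R had the highest share (51.5% in shNC and 58.9% in shDDX21), and TYROBP had 11.3% and 17.1%.

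**Figure D3:**
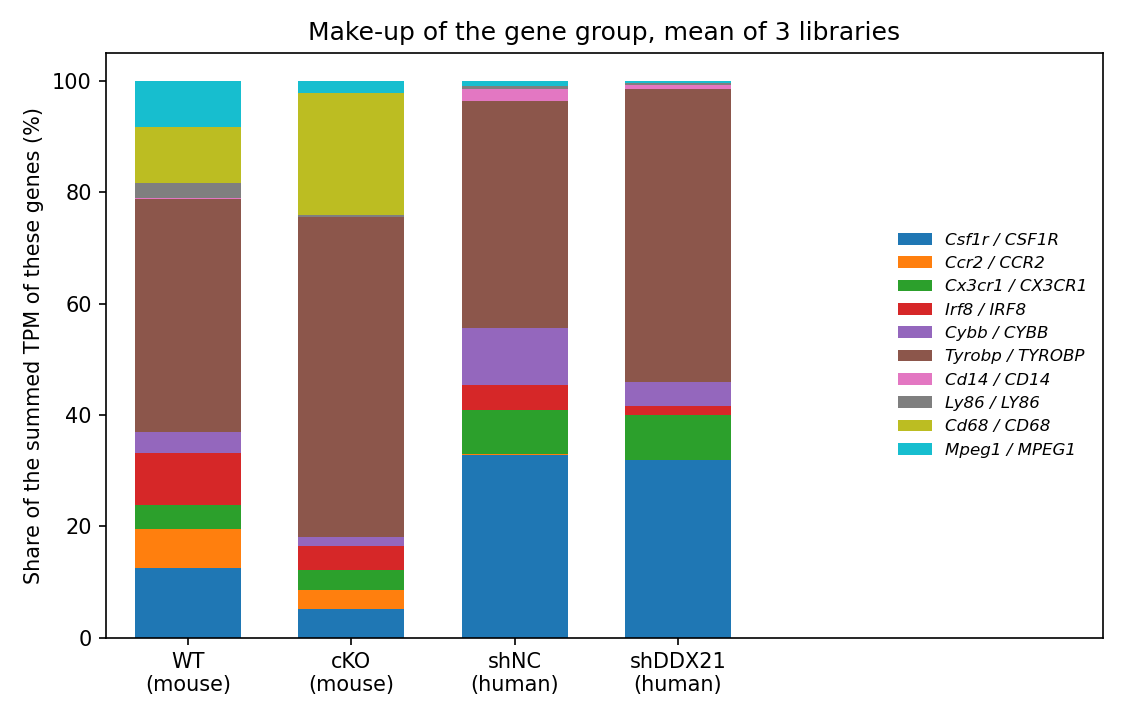
Share of each gene in the summed TPM of the group (y axis, percent), as the mean of 3 libraries, in the 4 groups. Tyrobp takes 41.8% of the sum in WT and 57.5% in cKO, and TYROBP 40.7% in shNC and 52.6% in shDDX21.

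Other genes of the same pathways were counted from lists that do not contain the 10 genes. Human counts cover only list genes for which the deposited data gave a symbol, such as 9 of 12 in the CSF receptor axis. Each count is to be read against the shares over all genes tested, 15.8% lower and 20.7% higher in the mouse and 27.4% lower and 25.3% higher in the human cells. Among monocyte transcription factors, 5 of the 16 tested fell and 3 rose in the mouse (median log2 change -0.07), and 12 of 17 fell and 3 rose in the human cells (median -0.31). The 3 mouse increases are about what the share over all genes gives. The regulators most directly tied to the lineage did not share 1 pattern. Spi1, which encodes PU.1, was at 23.9 ± 4.90 CPM in WT and 24.7 ± 5.07 in cKO (SD, n = 3 each; log2 change 0.05, adjusted p 0.867), and Cebpa was at 13.3 ± 0.735 and 13.2 ± 0.461 CPM (log2 change -0.02, adjusted p 0.895). Neither was called, and the sign of both changed between alternatives. Klf4, a factor of monocyte maturation, fell in the mouse from 19, 22 and 14 counts to 2, 4 and 1 (log2 change -3.02, SE 0.43, adjusted p 0.00163), and the early growth response gene Egr1 rose (3.63, SE 0.17, adjusted p 8.41e-06), as did Etv6 (0.58), an ETS-family repressor.

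In the human cells CEBPA fell (log2 change -1.29, SE 0.12, adjusted p 1.73e-15), as did CEBPB (-0.99), ID2 (-0.52), EGR1 (-0.42) and, slightly, SPI1 (-0.17), while the interferon factor IRF7 rose (1.02). KLF4 was not called (-0.01, SE 0.23, adjusted p 0.982). The interaction test found a mouse effect above the human one for CEBPA (difference 1.27, adjusted p 3.18e-05) and below it for KLF4 (-3.01, adjusted p 5.23e-04), and no call for SPI1 (0.21, 95% interval -0.22 to 0.65, adjusted p 0.377).

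Genes of the wider CSF receptor axis, a list that also holds receptors for other growth factors, did not follow Csf1r in the mouse. Of 11 genes of the CSF receptor axis tested, 5 rose (median log2 change 0.28). They include Csf3r, the granulocyte growth factor receptor (0.71), and the signalling proteins Grb2 and Cbl (0.30 each). The ligand Csf1 was low, at 3.16 CPM in WT and 4.32 in cKO, and not called (0.44, adjusted p 0.0915), and Il34 had 0 counts in all 6 libraries. Of 14 alternatives, 2 did call Csf1 higher, total-count scaling (adjusted p 0.0499) and leaving out cKO replicate 2 (0.0257). In the human cells 4 of 9 rose and 3 fell (median 0.07), among them INPP5D (0.39), DOK2 (0.22), CSF2RB (-0.31) and CSF3R (-0.25). CSF1 was at 13.4 and 14.1 CPM (0.07, adjusted p 0.570).

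Of 7 further NADPH oxidase genes, 4 rose and 1 fell in each experiment, with medians of 0.17 and 0.18. Over all genes 20.7% rose and 15.8% fell in the mouse and 25.3% rose and 27.4% fell in the human cells, so 1 lower gene of 7 is no more than the share over all genes. Rac1 (0.22) and the GTPase Rac2 (0.38) rose in the mouse, and CYBC1 (0.46), RAC2 (0.26) and CYBA (0.18) in the human cells. Ncf4 (-0.83, SE 0.22, adjusted p 0.0241) fell in the mouse, but the call was lost without WT replicate 1 (adjusted p 0.0795), WT replicate 2 (0.0678) or cKO replicate 3 (0.0834). Cyba, the membrane partner of Cybb, was not called there (-0.30, SE 0.26, adjusted p 0.401), nor was Ncf1 (-0.16, adjusted p 0.0766). NCF1 fell in the human cells (-0.82), but it has near-identical pseudogene copies and its count is uncertain.

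Receptors and kinases that work with TYROBP went both ways. In the mouse 5 of 13 rose and 4 fell (median log2 change 0.14). The kinases Lyn (0.80) and Syk (0.36) and the exchange factor Vav1 (0.53) rose, whereas Siglech (-3.09, SE 0.35, adjusted p 5.46e-04), a receptor of plasmacytoid dendritic cells that signals through DAP12, fell. The related adaptors Fcer1g (0.14, adjusted p 0.302) and Hcst (0.51, adjusted p 0.342) did not pass the test. In the human cells 2 of 13 rose and 5 fell (median -0.01). FCER1G (0.53) and BTK (0.22) rose and LYN (-0.40) fell.

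In the toll-like receptor module, 1 of 13 mouse genes rose and 2 fell (median 0.21), and 1 of 11 human genes rose and 4 fell (median -0.23). The lower counts are near the shares over all genes (15.8% and 27.4%). The partner of LY86, CD180, fell in the human cells (log2 change -1.57, SE 0.11, adjusted p 1.06e-21), from 17.2 to 5.77 CPM. Cd180 in the mouse went from 8.08 to 6.22 CPM (-0.38, SE 0.11, adjusted p 0.0353), a call that was lost in 8 of 14 alternatives. These were total-count scaling (adjusted p 0.0675), the model with replicate number (0.0585), DESeq2 (0.0857), and leaving out WT replicate 1 (0.115) or 3 (0.0575) or cKO replicate 1 (0.0716), 2 (0.0719) or 3 (0.106). Tlr4, which CD14 serves as co-receptor, was not called in the mouse (0.24, adjusted p 0.316), nor was its partner Ly96 (0.60, adjusted p 0.160), nor TLR4 in the human cells (-0.09, adjusted p 0.148). Human TLR4 was called lower only with total-count scaling (adjusted p 0.0499). TLR2 (-1.05) and the inhibitor IRAK3 (-0.93) fell in the human cells, and the adaptor Myd88 rose in both experiments (0.33 and, as MYD88, 0.41).

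Most of the chemokine receptors and ligands tested fell. In the mouse 7 of 9 did so, where 15.8% of all genes fell (median log2 change -0.66), including Ccr1 (-0.92), Ccr7 (-1.34) and the myeloid chemokine Ccl9 (-0.66). Ccl2, the ligand of Ccr2, had at most 2 counts in any mouse library. In the human cells 6 of 10 fell and 2 rose, where 27.4% and 25.3% of all genes did (median -0.78). CCL2 fell from 491, 438 and 457 counts to 116, 88 and 93 (-2.28, SE 0.095, adjusted p 3.36e-33), and CCL3 (-1.97) and CCR1 (-0.78) fell too, whereas CXCR4, which retains progenitors in their niche, rose (0.75).

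Lysosomal and phagocytic genes, the setting in which CD68 works, were divided. In the mouse 9 of 19 fell and 4 rose (median log2 change -0.18), and the 4 increases are close to the 20.7% share over all genes. The cathepsin Ctss fell (-2.32, SE 0.19, adjusted p 1.06e-04), while Ctsd (0.56) and the integrin chain Itgb2 (1.59) rose. Lyz2 fell (-0.67), but reads cannot be assigned surely between it and the near-identical Lyz1. In the human cells 10 of 21 fell and 7 rose (median -0.23), with CD36 (-1.24) and LYZ (-0.63) lower and GRN (0.59) and HEXA (0.80) higher.

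**Figure D4:**
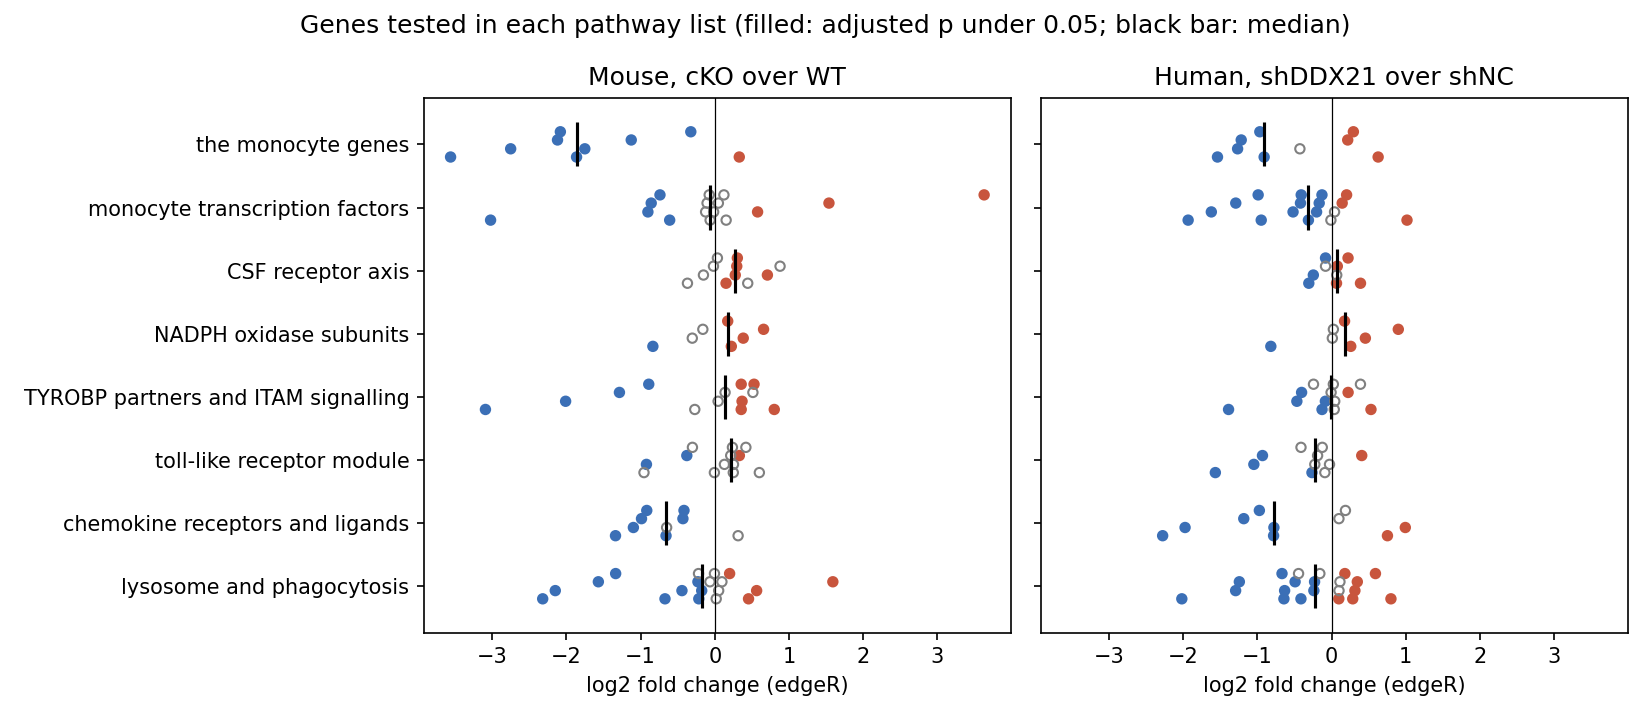
Log2 fold change (x axis, edgeR) of every tested gene of the 10 monocyte genes and of each pathway list, in the mouse (left) and the human cells (right). Filled points passed an adjusted p of 0.05 (red higher, blue lower), open points did not, and the black bar is the median, which is -1.86 and -0.91 for the monocyte genes and -0.66 and -0.78 for the chemokine list.

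Markers of other cell types were also counted in the mouse, where 15.8% of all genes tested fell and 20.7% rose. Neutrophil granule markers, made at a neighbouring stage of myeloid differentiation, fell in 7 of 13 and rose in 2, and summed to between 677.4 and 938.3 CPM in WT and between 377.5 and 624.3 in cKO. Further monocyte markers fell in 8 of 16 and rose in 5, with sums of 390.1 to 414.7 and 302.8 to 306.2 CPM. Of 20 tissue macrophage markers, 10 had at most 3 counts in every library, among them C1qa, C1qb, C1qc, Timd4 and Mertk. Of the 5 that could be tested, 2 rose and 2 fell. The whole macrophage list summed to 102.9 to 105.2 CPM in WT and 73.7 to 77.5 in cKO. Lymphoid markers fell in 5 of 8 and rose in 1, with a median log2 change of -1.79, although their sums overlapped (29.5 to 32.9 CPM in WT and 29.9 to 31.4 in cKO). Erythroid markers fell in 5 of 11 and rose in 4, with sums of 1795 to 1925 CPM in WT and 1328 to 1458 in cKO. Megakaryocyte markers rose in 4 of 8, with sums of 129.4 to 150.8 and 219.6 to 290.8 CPM, and endothelial markers rose in 5 of 7, with sums of 51.1 to 57.0 and 77.9 to 92.2 CPM. Stem and multipotent progenitor markers rose in 9 of 12 and fell in 2, with sums of 724.4 to 745.2 CPM in WT and 906.7 to 949.6 in cKO. Hepatocyte markers, 5 of 5 tested, rose, and summed to between 4.87 and 5.99 CPM in WT and between 35.7 and 38.9 in cKO. Dendritic cell markers fell in 4 of 11 and rose in 1. Mast cell and basophil markers rose in 2 of 9 and fell in 1, near the shares over all genes. The part of any of these in the fall of the 8 genes was not tested.

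Human genes were found only where the deposited data gave a symbol, so each human marker count and sum covers only part of its list. Those found were 8 of 17 neutrophil granule, 6 of 12 lymphoid, 9 of 16 dendritic cell and 7 of 10 megakaryocyte markers, for example. In the human cells, where 27.4% of all genes tested fell and 25.3% rose, neutrophil granule markers fell in 7 of 8. Their sums were 323.3 to 340.0 CPM in shNC and 155.9 to 161.7 in shDDX21. Further monocyte markers fell in 11 of 17 and rose in 3, although their sum was higher in shDDX21 (742.2 to 795.9 CPM) than in shNC (710.3 to 720.7). Mast cell and basophil markers fell in 6 of 9, with sums of 832.3 to 846.3 CPM in shNC and 585.1 to 593.5 in shDDX21. Lymphoid markers summed to 43.3 to 44.4 and 16.9 to 19.6 CPM. Of these, 2 of 6 were lower and 1 higher, near the shares over all genes. Tissue macrophage markers were well measured there, with 13 of 20 tested, 6 lower and 5 higher. Dendritic cell markers fell in 5 of 9 and rose in 2, and erythroid markers rose in 5 of 11 and fell in 2. Stem and multipotent progenitor markers rose in 6 of 10 and fell in 3, although their sum was lower in shDDX21 (1213 to 1233 CPM) than in shNC (1300 to 1313). Of 7 endothelial and 7 megakaryocyte markers, 3 rose and 3 fell in each list. The endothelial sum was 1877 to 1926 CPM in shNC and 1666 to 1690 in shDDX21. For megakaryocyte markers it was 1800 to 1887 and 1989 to 2007 CPM. The 9 genes themselves summed to 694.3 to 705.7 CPM in shNC and 710.2 to 715.4 in shDDX21, so their lower and higher members nearly cancelled in the total. How far these marker lists bear on the human changes was not tested.

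Genes with profiles most like those of Csf1r and Irf8 were named by the root mean square distance between mean-centred log2 CPM over the 6 libraries of an experiment. Among 9687 mouse genes with a mean of at least 5 CPM, those nearest to Csf1r were Ighm (0.0851), Hp (0.0949), Cybb (0.107), Mgll (0.121) and Irf8 (0.138), so 2 of the 5 belong to the 10 genes. The nearest to Irf8 were Acsl6 (0.0520), Mgll (0.0688), Tns1 (0.0772), Tifab (0.0891) and Clec12a (0.0968). Among 11688 human genes, WNK1 (0.0104), MAPKBP1 (0.0116), LAPTM5 (0.0117), CDC34 (0.0118) and PSME4 (0.0122) were nearest to CSF1R, and FGFR3 (0.0398), SPRY4 (0.0409), ZNF724 (0.0520), H2AZ2 (0.0526) and INHBA (0.0535) to IRF8. None of the human neighbours was among the 10 genes. With 2 groups of 3 libraries, such a distance mainly reflects a similar difference between the groups.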

How the data were processed

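The deposited raw tables hold counts of reads per gene as whole numbers, with an exon length (unit: bases) and position for each gene. A second deposited table per experiment holds a normalized signal, which was checked to be the raw counts over a single factor for each library, and log2 values of the authors relative to the controls. Neither was tested, and they served for gene symbols. The submitters' processing notes name STAR, featureCounts, DESeq2, mm10 and hg38, without versions or roles. Strand and multi-mapping settings are not given in the sources used here. GENCODE M21 held 99.5% of the mouse identifiers and gave further symbols (Cd14 among them) and GRCm38 positions.

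The tests of raw counts used edgeR 4.0.16 under R 4.3.3 (filterByExpr, TMM scaling, quasi-likelihood test, two-sided), separately in each experiment and as an interaction over both. CPM are TMM-scaled, TPM use the deposited exon length, each SD is taken across 3 libraries, and SE is the size of the log2 change divided by the root of F. Floors cover counting error only. An exact permutation test of 3 libraries against 3 has 0.1 as its smallest two-sided p, and the fit across all genes was used instead. On simulated counts the procedure was tested with 200 changed genes per experiment. Those genes were drawn from well-counted ones, with the same biological coefficient of variation for every gene. The simulation therefore says nothing about genes with few counts, and its outcome is not given here.

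Alternatives were RLE, upper-quartile and total-count scaling, DESeq2 1.42.0, 2 other filters on low counts, replicate number as a block, leaving out each library, and a 2-fold minimum. An offset for gene length was added after seeing the data. The 10 genes and all lists were chosen with earlier results of these data known. The text names all 10, up to 4 genes with the smallest p per pathway list, and direct partners of the 10. Marker genes used to describe the samples, such as Kit, CD34 and 5 macrophage markers, were named after their values were seen. A few genes that this rule names are not reported here.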

Additional observations from a re-analysis of the deposited data

Results flagged for a closer look

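These genes had effects that differed between the mouse and the human experiment by edgeR's interaction test (mouse minus human log2 fold change), a contrast in which species, cell source and method of DDX21 removal change together. The mouse effect was lower for LY86 (-3.14), KLF4 (-3.01), CSF1R (-2.30), MPEG1 (-1.84), CX3CR1 (-1.42), CYBB (-1.15), TYROBP (-0.95) and IRF8 (-0.65), and higher for CEBPA (1.27). Among the 10313 genes compared, 56.2% differed by this test, so a difference alone was common. The test shared the spread of both experiments, so its p-values can understate the mouse spread. For CSF1R, CX3CR1 and TYROBP the effects had opposite signs, and the mouse Tyrobp call itself was marginal. The KLF4 difference rests on few reads, as mouse Klf4 had 2, 4 and 1 counts in cKO.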

How the results depend on the processing

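The 7 mouse genes that fell at least 2-fold and the 8 human genes called kept direction and call under every other scaling, filter, model and left-out library in which they could be tested, and the interaction calls did likewise. The 2-fold minimum left those 7 mouse genes but 3 of the 8 human ones. In the mouse the number of genes called lower was 7 or 8, but 6 where at least 10 counts were required in every library, a filter that drops Ly86. The number called higher was 1 (Cd68) and became 0 with no filter on low counts, with the replicate block, with DESeq2 and with the 2-fold minimum, and 0 to 1 when single libraries were left out. The mouse median of -1.86 moved to -1.80 with total-count scaling, -1.99 with no filter (which admits Cd14) and -1.79 with 10 counts in every library, and ran from -1.93 (without WT replicate 3) to -1.82 over left-out libraries. The human median of -0.91 moved to -0.66 with 10 counts in every library, which drops CCR2, and ran from -0.99 to -0.77 (without shDDX21 replicate 1) over left-out libraries. Those 3 human genes were lower and 0 were higher. The median interaction difference of -1.29 became -1.43 with no filter.

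Among the genes named, signs changed only for values that were not called. Over left-out libraries mouse Spi1 ran from -0.11 (without WT replicate 3) to 0.20, with -0.099 without cKO replicate 1. Mouse Cebpa was 0.010 with upper-quartile and 0.050 with total-count scaling, and -0.047 to 0.025 over left-out libraries. Human KLF4 was 0.061 (upper quartile), 0.0017 (10 counts in every library), 0.0052 (replicate block), 0.015 (length offset) and 0.0012 (DESeq2), and -0.18 to 0.29 over left-out libraries. On the same basis human CSF1 ran from -0.039 to 0.17 and the CCR2 interaction from -0.58 to 0.33. The cause was not tested.

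Whether replicate numbers pair the libraries was checked by correlating their deviations from the group means over the 9687 mouse and 11688 human genes with a mean of at least 5 CPM. For same-numbered libraries r was 0.738, -0.543 and 0.0958 in the mouse and -0.0269, 0.0051 and -0.0115 in the human experiment. Differently numbered mouse libraries also deviated strongly together or apart (0.797 for WT replicate 3 with cKO replicate 2, -0.833 for WT replicate 3 with cKO replicate 1 and -0.704 for WT replicate 1 with cKO replicate 2). The numbers were therefore not taken as pairs. With the replicate block, 7 mouse genes were called lower and 0 higher, and 5 human genes lower and 3 higher. The lowest counts (Cd14 and, in cKO, Klf4 in the mouse, CCR2 and LY86 in the human cells) limit what depth can show.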
